A study of Homo sapiens with 12 samples.

Results

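Oxidative phosphorylation was described in Huh7 and HepG2 liver cancer cells, parental or resistant to sorafenib, through 90 genes that encode subunits of the 5 respiratory complexes. The members were chosen by symbol: Ensembl genes named NDUFA, NDUFB, NDUFC, NDUFS or NDUFV, UQCR, COX4 to COX8, ATP5F1, ATP5M or ATP5P, the genes SDHA to SDHD and CYC1, and the mitochondrial genes that begin with MT-ND, MT-CO, MT-ATP or MT-CYB. Of 27249 Ensembl genes, 140 carried such a symbol, and 12 NDUFAF assembly factors and 38 pseudogenes were left out. The 85 nuclear members comprised 35 of complex I, 4 of complex II, 10 of complex III, 17 of complex IV (NDUFA4 and NDUFA4L2 are counted there) and 19 of complex V. The 5 mitochondrial members were MT-CO1, MT-ND2, MT-ND3, MT-ND4L and MT-ND5. GENCODE release 29 holds 103 coding genes under the same rule, and 13 of them, among them NDUFA1, NDUFA8, COX6A2 and 8 mitochondrial genes, were not analysed here.

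Oxidative phosphorylation takes place in the inner mitochondrial membrane, where complexes I and II pass electrons from NADH and succinate to coenzyme Q, complex III passes them on to cytochrome c, and complex IV to oxygen. Complexes I, III and IV pump protons as they do so, and complex V, the ATP synthase, uses the returning protons to make ATP. Complexes I, III, IV and V are built from subunits of both the nuclear and the mitochondrial genome, whereas complex II is wholly nuclear. Hepatocytes are rich in mitochondria, and sorafenib is an oral multikinase inhibitor given for hepatocellular carcinoma.

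RNA was sequenced from 12 samples in 4 groups of 3. Huh7 and HepG2 are human liver cancer lines, both labelled wild type. Resistant cells of each line had received sorafenib, starting at 10 μmol for 24 h, in repeated and rising exposures over 8 months, and the parental cells, which the labels call sensitive, were untreated. Each resistant line was derived by selection from its parental line, and no source says whether it is 1 clone or whether the 3 samples are separate cultures, so p-values measure only the spread between these samples, which may be technical. No source used here describes parental cells kept without drug for the same time, so resistance and long culture cannot be told apart.

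Levels are given in FPKM, fragments scaled by exon length and by the reads of the library. This puts different genes on a common scale per length, but some subunits in general use, such as COX5B, were listed near 0. How reads were assigned to genes is not given in the sources used here, so levels of different genes are compared with caution. The values correspond to 12290128 to 19285960 reads per library, with 18971893 to 19285960 in Huh7 resistant, 16158298 to 17944448 in Huh7 parental, 16935542 to 18281777 in HepG2 resistant and 12290128 to 15728850 in HepG2 parental cells. In every group, 8 of 8 hepatocyte markers had a mean of at least 1 FPKM, while the summed leukocyte, endothelial or fibroblast markers stayed at or below 3.66 FPKM in every library. The summed hepatocyte markers ranged from 5152 to 5287 FPKM in resistant and 7796 to 9667 FPKM in parental Huh7 cells, and from 3795 to 4068 against 4816 to 5957 FPKM in HepG2. These markers did not move together. In resistant Huh7 cells AFP (2115 to 2415 against 4623 to 6306 FPKM), APOB and ALB were lower without overlap. HNF4A and APOA1 were higher without overlap, and TTR, FGB and SERPINA1 overlapped. In resistant HepG2 cells AFP, ALB and FGB were lower without overlap, and the others overlapped. The summed fibroblast markers, none of which had a mean of 1 FPKM in any group, ranged from 2.23 to 2.58 FPKM in resistant and 0.801 to 0.900 FPKM in parental Huh7 cells. The part of either marker list in the results was not tested. Huh7 resistant replicate 3 stood apart in 1 gene, the mitochondrial ribosomal RNA MT-RNR2, at 2844 FPKM against 55.1 to 92.8 FPKM in the other 5 Huh7 libraries. In bulk RNA, fewer cells that express a gene and less RNA per cell cannot be told apart.

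Changes are log2 fold changes of FPKM + 1, tested with limma across every gene that reached 1 FPKM in 3 or more of the 6 samples compared. A gene passed the test at a Benjamini-Hochberg adjusted p under 0.05, and was called differentially expressed when its log2 fold change also went beyond 1 in either direction. Resistant minus parental is the direction throughout each line. Of the 85 nuclear members, 70 were tested in Huh7 and 68 in HepG2, and 13 reached the filter in neither line.

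Promoters of members that rose or fell in resistant Huh7 cells are shown first, to let the letters near their starts be read beside the values. Nuclear respiratory factor 1 (NRF1), GA-binding protein of the ETS family and YY1 are known regulators of respiratory genes. Exact matches, on both strands, to GCGCATGC for NRF1, CCGGAAG for the ETS family and AAGATGGC for YY1 were searched from 250 bases before to 50 bases after the RefSeq start of each gene. Promoter sequences were taken from RefSeq on GRCh38.p14, and 63 of the 85 nuclear members had one, matched by symbol. Printed is the longest run, of at least 100 bases, before the RefSeq start that overlaps no GENCODE 29 exon, 5′ to 3′ on the strand of the gene, with matches in capitals.

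The first 3 are, for each complex that had one, the member with the largest rise in Huh7 whose run held a match. NDUFB4 (chr3:120596086-120596308, plus strand) is an accessory subunit of complex I, SDHB (chr1:17054171-17054282, minus strand) the iron-sulfur subunit of complex II, and COX6A1 (chr12:120437863-120438089, plus strand) a subunit of complex IV. The capitals mark NRF1 matches in all 3, and the NDUFB4 match reads the same on both strands. A match in the run was a condition for these 3 but not for the falls below. The printed runs therefore do not compare rises with falls. Outside the printed runs, the windows of SDHB and COX6A1 also held an ETS match, and that of SDHB a YY1 match.
NDUFB4: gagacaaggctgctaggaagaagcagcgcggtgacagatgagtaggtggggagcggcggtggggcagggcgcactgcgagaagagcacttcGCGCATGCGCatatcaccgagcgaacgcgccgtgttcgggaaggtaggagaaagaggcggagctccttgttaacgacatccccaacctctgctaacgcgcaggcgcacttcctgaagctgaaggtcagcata
SDHB: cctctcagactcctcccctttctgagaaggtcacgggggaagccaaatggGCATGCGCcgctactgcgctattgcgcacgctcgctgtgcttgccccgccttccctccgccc
COX6A1: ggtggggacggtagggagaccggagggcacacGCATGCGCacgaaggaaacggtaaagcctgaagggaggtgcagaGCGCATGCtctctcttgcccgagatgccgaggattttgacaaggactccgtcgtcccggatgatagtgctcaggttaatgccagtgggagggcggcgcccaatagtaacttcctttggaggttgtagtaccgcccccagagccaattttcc

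The other 2 belong, for each complex that had one, to the member with the largest fall in Huh7 among those with such a run, NDUFV2 of complex I (chr18:9102449-9102629, plus strand) and COX7B of complex IV (chrX:77899218-77899437, plus strand). Neither held a match anywhere in its window, so no letters are in capitals. The window of NDUFS4, which fell less than NDUFV2 in complex I and is not printed, held a YY1 match. That of ATP5MG of complex V, which also fell and is not printed, held an ETS match.
NDUFV2: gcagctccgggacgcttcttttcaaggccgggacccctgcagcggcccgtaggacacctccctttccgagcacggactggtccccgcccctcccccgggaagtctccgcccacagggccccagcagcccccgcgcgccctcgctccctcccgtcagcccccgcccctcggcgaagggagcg
COX7B: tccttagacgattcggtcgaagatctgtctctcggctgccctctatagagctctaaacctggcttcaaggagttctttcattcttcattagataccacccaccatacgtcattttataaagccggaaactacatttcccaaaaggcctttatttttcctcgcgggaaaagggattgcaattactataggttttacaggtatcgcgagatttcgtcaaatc

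Over all 63 promoters, NRF1 matches were found in 12 (19.0%), ETS matches in 18 (28.6%) and YY1 matches in 11 (17.5%). The same matches were found in 3.05%, 10.3% and 2.89% of 35116 RefSeq promoters of this length. At least 1 of the 3 was held by 31 members (49.2%) against 14.9% of all promoters. Each member counts with 1 promoter, whereas the 35116 were neither reduced to 1 per gene nor chosen by kind of gene. The shares thus come from unlike sets, and whether the difference is particular to respiratory genes was not tested. By change in Huh7, matches of any kind were held by 14 of 32 members that rose (43.8%), 2 of 6 that fell (33.3%), 9 of 17 that did not pass (52.9%) and 6 of 8 that were not tested (75.0%). These shares are descriptions of letters in a window, and no binding was measured.

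The level of the nuclear members was higher in resistant than in parental Huh7 cells. Their summed level was 2982, 2689 and 2983 FPKM in the 3 resistant and 1840, 1722 and 1526 FPKM in the 3 parental samples, a mean of 2885 ± 170 against 1696 ± 159 FPKM (SD, n = 3), with no overlap. In HepG2 it was 1705, 2047 and 1839 FPKM in resistant and 1563, 1863 and 1421 FPKM in parental samples, a mean of 1864 ± 172 against 1615 ± 226 FPKM (SD, n = 3), and the groups overlapped. The 3 most abundant members, ATP5F1B, COX6B1 and CYC1, picked after their values were seen, made up 36.3% ± 1.62 of the sum in resistant and 28.8% ± 1.42 in parental Huh7 cells (SD, n = 3). Sums over members are given without a test. Sums and ranks by level rest on the listed values, in which members such as COX5B and ATP5ME stand near 0.

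**Figure D1:**
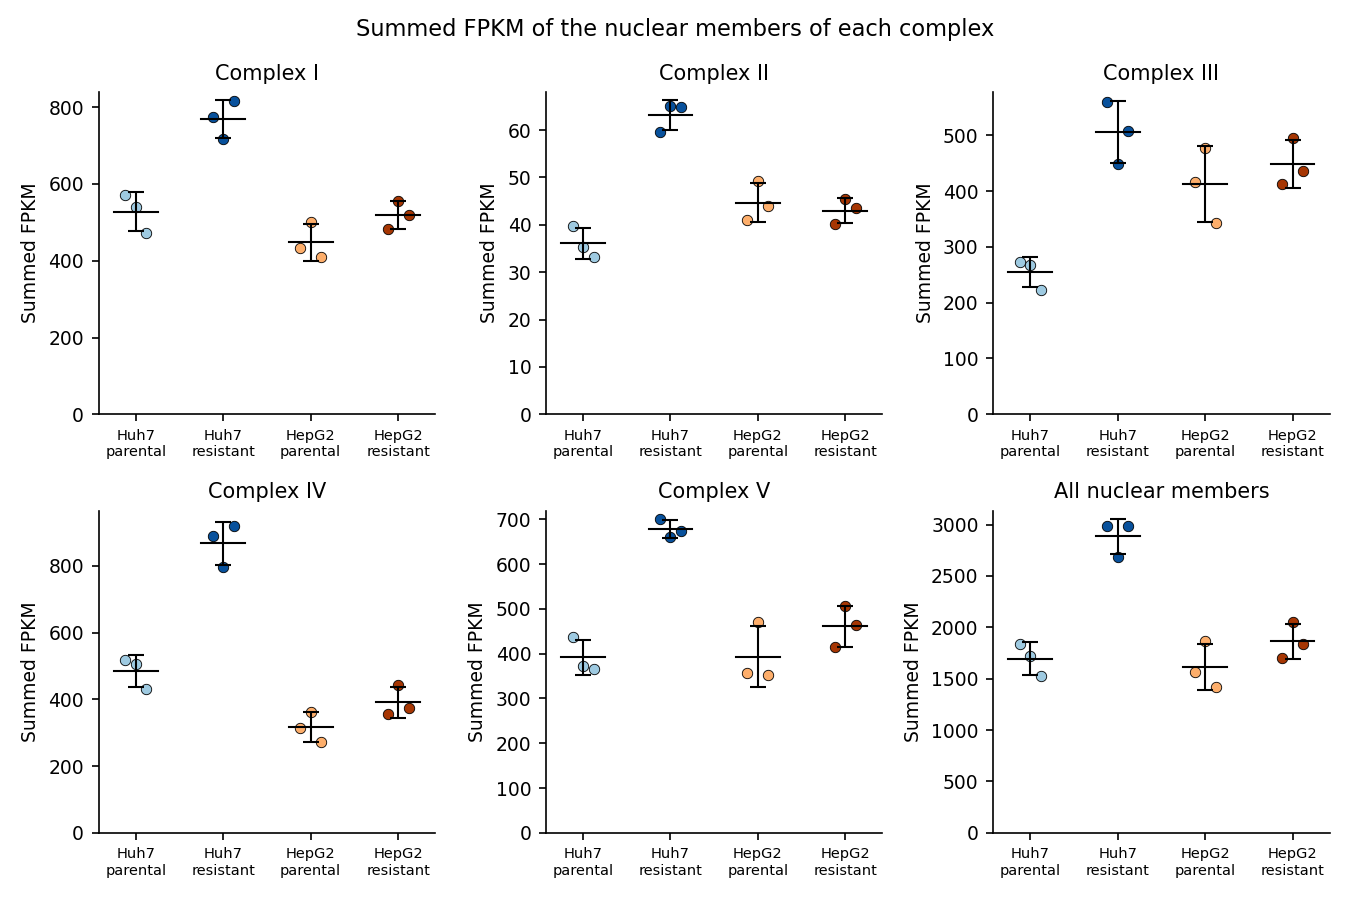
Summed FPKM of the nuclear members of each complex and of all 85 nuclear members, by sample (points), with the mean and SD of each group of 3 (bars). In Huh7 the resistant samples lie above the parental samples in every panel, for complex III at 505 ± 55.6 against 255 ± 27.5 FPKM, while in HepG2 the groups overlap.

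In Huh7, 40 of the 70 nuclear members tested rose (57.1%) and 6 fell (8.57%), and 24 did not pass. Of all 12554 genes tested, 32.7% rose and 37.4% fell. The median log2 fold change was 0.47 over the members and -0.04 over all genes. As differentially expressed, 9 members were called upward, where 8.59% of all genes were, and 0 downward with limma, where 14.0% of all genes were. The lowest change of any member was -0.97, so the downward count is 0 at any p, and limma-voom on reads called 2, where 2849 of 12552 genes were. The 9 became 5 without parental replicate 3, 6 with the GC trend described next taken off (5.59% of all genes), and 1 with an equal nuclear sum (4.91% of all genes), where 3 were called downward (20.4% of all genes). The 6 were not all among the 9. NDUFB9, UQCR10 and COX6A1 were kept with the GC trend taken off, and NDUFA9, NDUFB4 and ATP5MC3 were new. NDUFA5 entered the test only through the parental samples, so it could only be called lower.

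Counts in Huh7 depended on GC content and on scaling. GC content here is that of the longest annotated transcript of each gene. Across 12545 genes, which are not independent replicates, Spearman's rho between this GC content and the log2 fold change was 0.617. Over the 70 members it was 0.446, and in HepG2 it was 0.0389 over 11756 genes and 0.206 over 68 members. With the GC trend of all genes taken off each library, 45 members rose (32.5% of all genes) and 7 fell (31.9%), of which 32 and 2 were also called without it, and the median was 0.43. When libraries were instead scaled to an equal sum of the nuclear Ensembl genes, the median of all genes moved by -0.21, 30 members rose (23.1% of all genes) and 13 fell (45.6%), the median of members was 0.23, and the share of rises among all genes called went from 46.6% to 33.6%. What GC content or scaling contributes to the change was not tested.

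**Figure D2:**
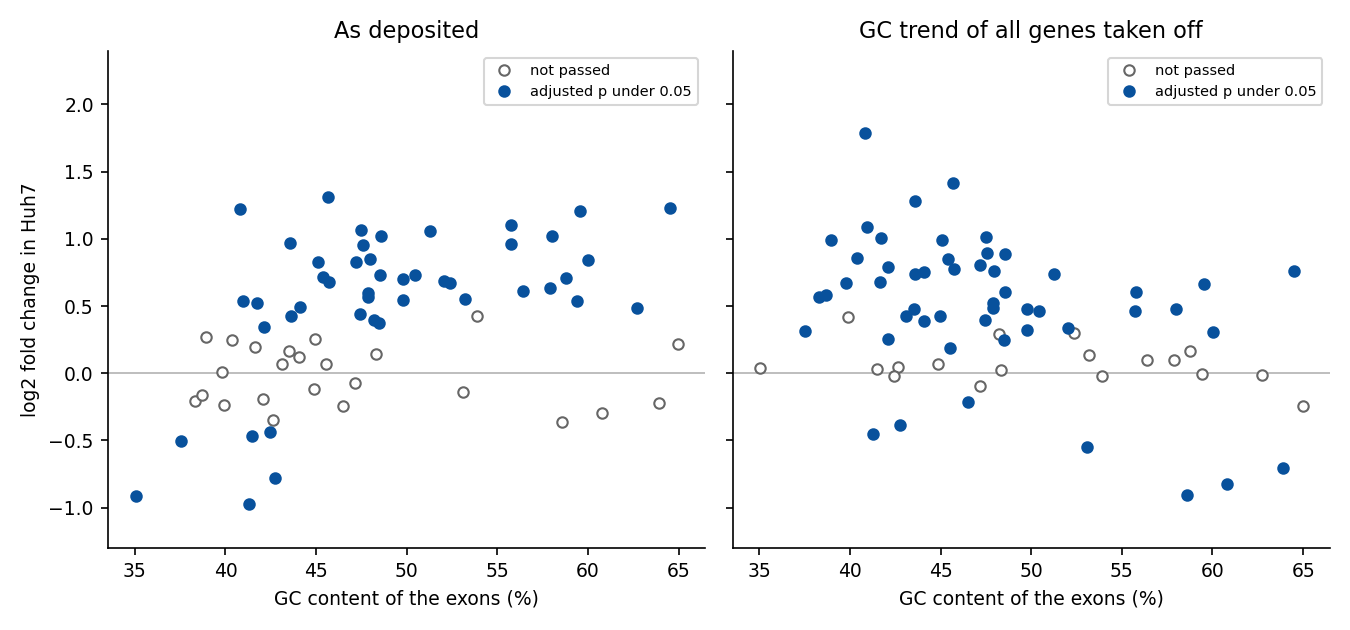
The log2 fold change of FPKM + 1 in Huh7 of the 70 nuclear members tested (vertical axis) against their GC content in percent (horizontal axis), as deposited on the left and with the GC trend of all genes taken off on the right. GC content is that of the longest annotated transcript of each gene, which the axis labels as exons. Filled points passed the test; most members lie above 0 in both panels, and 4 of the 6 members called lower on the left are not called lower on the right.

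By complex, complex III had the highest median change in Huh7, 0.78, with 6 of 8 tested members rising and 0 falling. Complex II had 2 of 3 rising at a median of 0.70, and complex I had 22 of 33 rising and 3 falling at a median of 0.49. Complex IV had 4 of 11 rising and 2 falling at a median of 0.25, and complex V 6 of 15 rising and 1 falling at a median of 0.12. With an equal nuclear sum these 2 medians turned to -0.02 and -0.10, whereas with the GC trend taken off they were 0.48 and 0.43, with 8 of 11 and 10 of 15 rising, above complex I at 0.30 with 17 of 33. Differences between complexes were not tested.

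**Figure D3:**
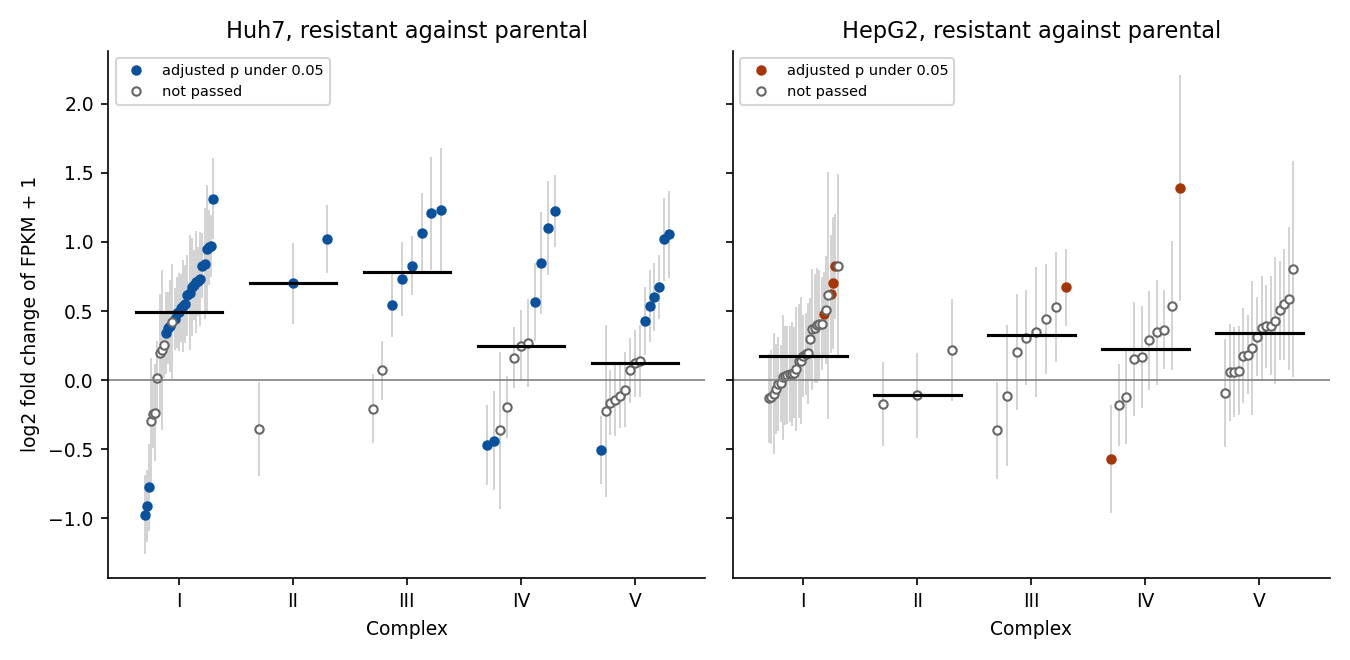
The log2 fold change of FPKM + 1 with its 95% interval for each tested nuclear member, by complex, in Huh7 (left) and HepG2 (right). Filled points passed the test and horizontal bars are medians. In Huh7 the medians run from 0.12 in complex V to 0.78 in complex III, those of complexes IV and V being -0.02 and -0.10 with an equal nuclear sum and 0.48 and 0.43 with the GC trend taken off, and in HepG2 7 points are filled.

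Complex I takes electrons from NADH. Its largest rise was that of NDUFB9, an accessory subunit of the membrane arm, with 62.4, 54.9 and 59.5 FPKM in resistant and 27.2, 22.4 and 20.2 FPKM in parental Huh7 cells. All resistant values lay above all parental ones, and the fold was 2.48 (log2 fold change 1.31 ± 0.13 SE, adjusted p = 7.38e-05, limma). NDUFA9, an accessory subunit at the junction of the 2 arms, had 5.55, 5.88 and 5.57 FPKM in resistant and 2.42, 2.31 and 2.47 FPKM in parental cells, a fold of 1.96. NDUFS3, a core subunit, had 11.1, 9.90 and 11.4 against 5.60, 4.37 and 5.26 FPKM, a fold of 1.95 (adjusted p = 0.000186, limma). The log2 fold changes of NDUFB9, NDUFA9 and NDUFS3 went from 1.31, 0.97 and 0.96 to 1.42, 1.28 and 0.46 with the GC trend taken off. All still passed.

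The core subunits of the electron input module of complex I did not move together. NDUFV1, which binds NADH and FMN, had 75.0, 62.1 and 81.2 FPKM in resistant and 57.7, 48.5 and 43.4 FPKM in parental cells (log2 fold change 0.54 ± 0.15 SE, adjusted p = 0.0101, limma), but its change was -0.00 with the GC trend taken off and did not pass with an equal nuclear sum (adjusted p = 0.0837). NDUFV2, its iron-sulfur partner, had 2.43, 3.23 and 2.66 FPKM in resistant and 6.25, 5.82 and 7.10 FPKM in parental cells. All resistant values lay below all parental ones, and the log2 fold change was -0.97 ± 0.12 SE (adjusted p = 0.000223, limma), and -0.45 with the GC trend taken off. NDUFS1, the largest core subunit, had 32.3, 44.3 and 39.7 against 30.2, 31.6 and 28.7 FPKM (0.34 ± 0.13, adjusted p = 0.0427, limma), which did not pass with an equal nuclear sum (adjusted p = 0.616), nor without any of 5 single libraries, at adjusted p of up to 0.125. Its change was larger with the GC trend taken off (0.79, adjusted p = 0.000335, limma).

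The other falls in complex I were NDUFS4 and NDUFA5. NDUFS4, an accessory subunit near the input module, had 11.97, 11.1 and 9.48 FPKM in resistant and 17.3, 17.8 and 22.9 FPKM in parental cells (-0.78 ± 0.14, adjusted p = 0.00119, limma). NDUFA5 was low in both groups, at 0.449, 0.605 and 0.486 against 1.57, 2.04 and 1.95 FPKM, and its log2 fold change of -0.91 became 0.04 with the GC trend taken off. NDUFA11, a membrane subunit of high GC content, rose by 0.49 (adjusted p = 0.00463, limma) and stood at -0.01 with that trend taken off, and did not pass with an equal nuclear sum.

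Complex II, succinate dehydrogenase, also serves the citric acid cycle. SDHB had 43.2, 48.2 and 49.4 FPKM in resistant and 24.5, 22.1 and 21.2 FPKM in parental Huh7 cells, a fold of 2.03 without overlap (log2 fold change 1.02 ± 0.11 SE, adjusted p = 9.61e-05, limma). SDHA, the flavoprotein that oxidizes succinate, had 11.8, 10.2 and 10.6 against 7.58, 5.61 and 5.84 FPKM, a fold of 1.62 (adjusted p = 0.00140, limma). The log2 fold changes of SDHB and SDHA went from 1.02 and 0.70 to 0.89 and 0.48 with the GC trend taken off, and both still passed. The membrane anchors did not follow: SDHC had 4.14, 6.08 and 4.55 against 6.99, 6.97 and 5.60 FPKM with overlapping groups (-0.35, adjusted p = 0.0617, limma), although it fell with an equal nuclear sum (-0.58, adjusted p = 0.00913), and SDHD stayed under the filter, at 0.389 to 0.668 FPKM in Huh7.

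Complex III hands electrons from coenzyme Q to cytochrome c. CYC1, its cytochrome c1, had 166, 117 and 140 FPKM in resistant and 67.0, 68.6 and 44.3 FPKM in parental Huh7 cells, a fold of 2.35 (log2 fold change 1.23 ± 0.20 SE, adjusted p = 0.000648, limma). UQCRC1, a core protein of the matrix side, had 116, 80.1 and 97.5 against 51.7, 38.3 and 35.5 FPKM, a fold of 2.31. UQCR10 had 155, 135 and 145 against 68.5, 78.4 and 60.4 FPKM, a fold of 2.09. In all 3 genes every resistant sample lay above every parental sample. The log2 fold changes of CYC1, UQCRC1 and UQCR10 went from 1.23, 1.21 and 1.06 to 0.76, 0.67 and 1.01 with the GC trend taken off. All 3 still passed.

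UQCRFS1, the Rieske iron-sulfur protein, had 26.8, 26.0 and 27.5 FPKM in resistant and 15.2, 13.9 and 14.8 FPKM in parental Huh7 cells (0.83 ± 0.09, adjusted p = 0.000131, limma). UQCRH, the hinge protein that helps cytochrome c dock, had 61.4, 57.1 and 62.4 against 42.7, 41.9 and 38.7 FPKM (0.54 ± 0.10, adjusted p = 0.00137, limma). UQCRC2, the other core protein, differed little, at 11.9, 12.6 and 12.4 against 11.3, 11.7 and 12.02 FPKM (0.07, 95% interval -0.14 to 0.28, adjusted p = 0.515, limma), although its change of 0.19 passed with the GC trend taken off (adjusted p = 0.0296). UQCR11 and UQCRHL were under the filter, with at most 59 and 6 reads in any sample.

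Complex IV, cytochrome c oxidase, reduces oxygen. COX6A1, an accessory subunit, had 77.7, 72.0 and 88.1 FPKM in resistant and 35.5, 31.2 and 33.2 FPKM in parental Huh7 cells, a fold of 2.33 (log2 fold change 1.22 ± 0.11 SE, adjusted p = 6.19e-05, limma), and its change was 1.79 with the GC trend taken off. COX6B1, a subunit on the cytochrome c side, was among the most abundant members, with 478, 377 and 471 against 232, 200 and 183 FPKM, a fold of 2.15 (adjusted p = 0.000282, limma). Its log2 fold change went from 1.10 to 0.60 with the GC trend taken off and still passed. COX4I1, the largest nuclear subunit, had 25.9, 21.1 and 26.5 against 17.4, 16.6 and 14.6 FPKM (0.56 ± 0.12, adjusted p = 0.00344, limma).

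In complex IV, COX7B and COX7A2 fell, while COX8A and NDUFA4 did not pass. COX7B had 0.784, 1.08 and 0.713 FPKM in resistant and 1.79, 1.32 and 1.62 FPKM in parental Huh7 cells (-0.47 ± 0.13, adjusted p = 0.00941, limma), and its change was 0.03 with the GC trend taken off. COX7A2 had 1.21, 2.02 and 1.40 against 1.94, 2.84 and 2.51 FPKM (-0.44, adjusted p = 0.0334, limma), with overlapping groups, a change of -0.02 with that trend taken off, and adjusted p of 0.0763 to 0.121 without any of 4 single libraries. COX8A had 1.56, 1.84 and 4.05 against 4.07, 2.81 and 3.05 FPKM and did not pass (-0.36, 95% interval -0.93 to 0.20), but fell with the GC trend taken off (-0.91, adjusted p = 0.0126, limma). NDUFA4, once assigned to complex I, had 130, 143 and 143 against 117, 126 and 106 FPKM (0.25, adjusted p = 0.0774, limma), with a change of -0.02 with an equal nuclear sum and a rise of 0.86 with the GC trend taken off (adjusted p = 0.000478).

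The isoforms of complex IV known from other tissues or from low oxygen were near the floor in all 12 samples. COX4I2 had at most 6 reads, COX6B2 1, COX7A1 9 and COX7B2 2, and NDUFA4L2, a gene induced in hypoxia, had at most 18. COX6A2 and COX8C were not analysed here. COX5B, a subunit that every cell with complex IV uses, was itself listed at 0 to 0.304 FPKM with at most 8 reads, and ATP5ME of complex V at 0 to 0.276 FPKM with at most 5, so values near 0 in these data are not read as absence.

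Complex V makes ATP. ATP5F1B, the catalytic beta subunit, had 494, 449 and 454 FPKM in resistant and 261, 210 and 203 FPKM in parental Huh7 cells, a fold of 2.08 (log2 fold change 1.06 ± 0.14 SE, adjusted p = 0.000239, limma). ATP5F1A, the alpha subunit of the same hexamer, had 36.1, 38.5 and 36.9 against 24.2, 23.6 and 20.9 FPKM, a fold of 1.60. ATP5MF, a subunit of the membrane part, had 15.9, 13.3 and 13.9 against 7.79, 5.74 and 6.28 FPKM, a fold of 2.03 (adjusted p = 0.000226, limma). The groups did not overlap in any of the 3. The log2 fold changes of ATP5F1B, ATP5F1A and ATP5MF went from 1.06, 0.68 and 1.02 to 0.74, 0.78 and 0.48 with the GC trend taken off. All 3 still passed.

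The stalk and several membrane subunits of complex V showed smaller differences. ATP5PB, ATP5PD, ATP5PF and ATP5PO of the peripheral stalk had log2 fold changes of 0.07, -0.12, -0.14 and 0.12, and none of the 4 passed, although with the GC trend taken off ATP5PB and ATP5PO rose (0.43 and 0.38) and ATP5PF fell (-0.55), and with an equal nuclear sum ATP5PD fell (-0.37). ATP5MG had 1.59, 1.70 and 1.65 FPKM in resistant and 2.65, 3.11 and 2.54 FPKM in parental cells. Its log2 fold change of -0.51 ± 0.11 SE (adjusted p = 0.00295, limma) turned to 0.32 with the GC trend taken off (adjusted p = 0.0472), so that its direction rests on that choice.

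**Figure D4:**
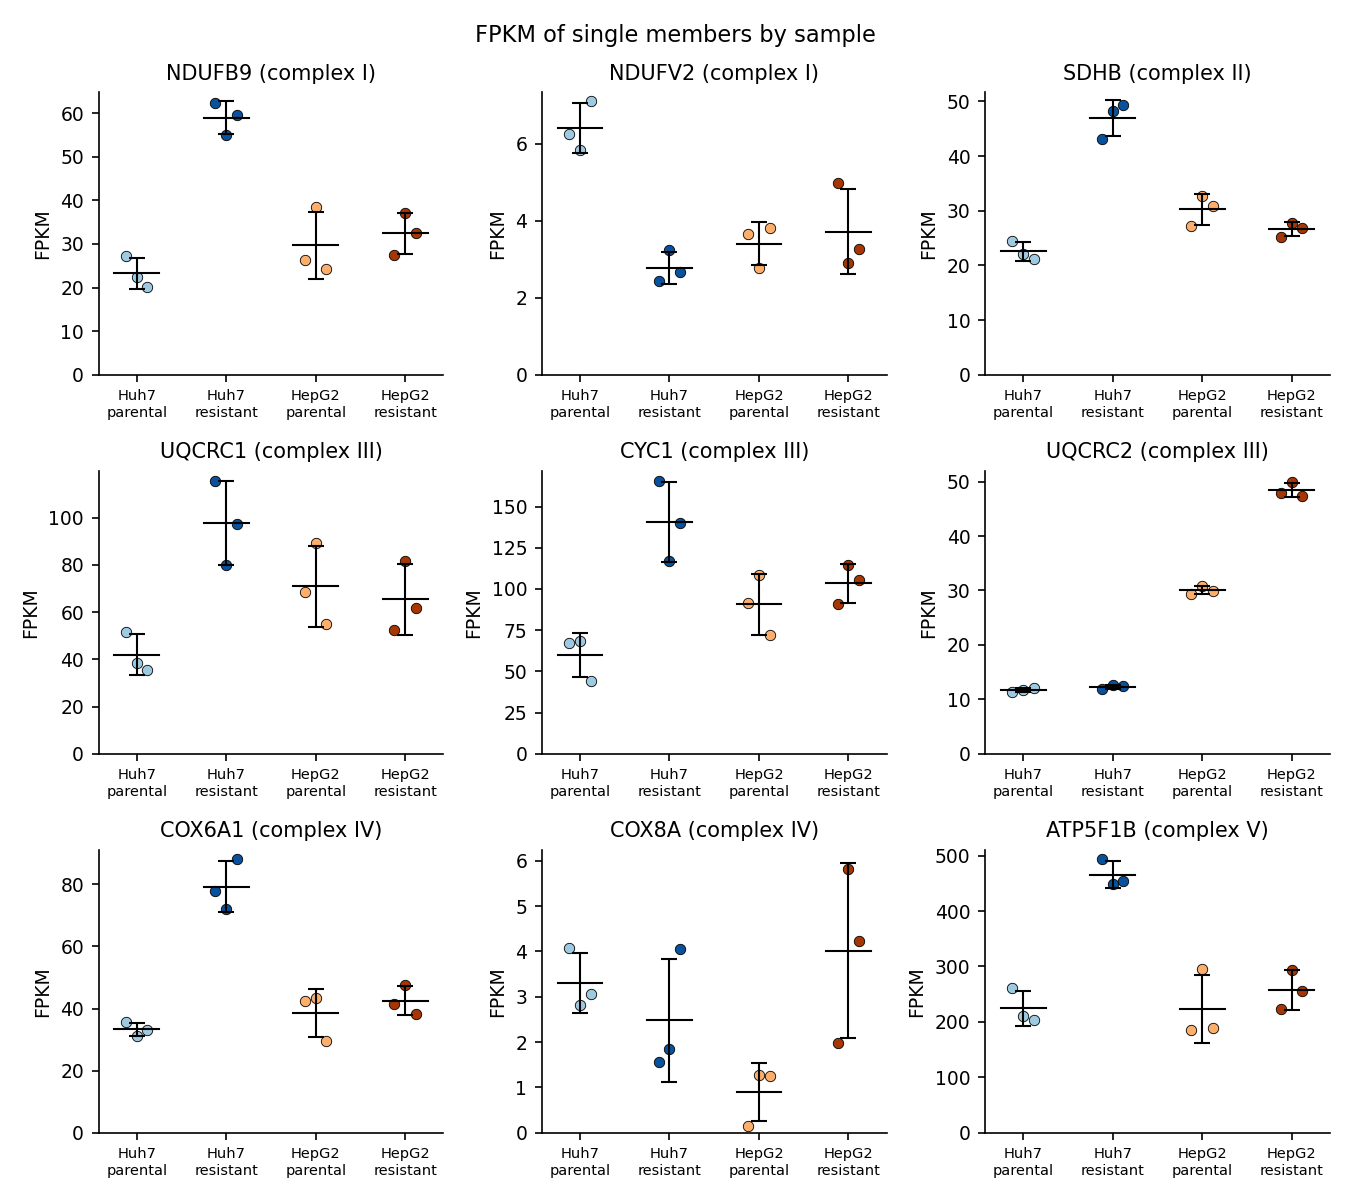
FPKM by sample (points), with mean and SD of each group of 3 (bars), for 9 members. NDUFB9, SDHB, UQCRC1, CYC1, COX6A1 and ATP5F1B are higher in resistant than in parental Huh7 cells, NDUFV2 is lower, and UQCRC2 and COX8A are higher in resistant than in parental HepG2 cells.

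Fewer calls were made in HepG2. Of 68 nuclear members tested, 6 rose (8.82%), where 11.6% of all 11762 genes did, 1 fell, where 8.43% did, and 61 did not pass. As differentially expressed, 1 member was called upward, where 3.29% of all genes were, and 0 downward with limma, where 2.98% were, the lowest change of any member being -0.57. The median log2 fold change was 0.21 over the members and 0.12 over all genes. A positive change was seen in 54 members and a negative one in 14, against 7170 and 4592 of all genes. The member counts were 46 and 22 with upper-quartile scaling, 44 and 24 with median-ratio scaling, and 41 and 27 with the GC trend taken off. The medians of the members were then 0.14, 0.11 and 0.14. The 6 rises became 0 without resistant replicate 3, 2 without resistant replicate 2 or without parental replicate 1, 4 without parental replicate 3 and 10 without resistant replicate 1, and were 3 under upper-quartile scaling (9.22% of all genes) or median-ratio scaling (8.43%), which moved the share of rises among all genes called from 58.0% to 47.5% and 43.5%. They were 8 with an equal nuclear sum (11.3% of all genes) and 18 with all 12 samples in 1 fit (20.2%), so the share of members that rose lay below or above that of all genes by setting, and their count in HepG2 is not read as a result about the members.

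The 6 members that rose in HepG2 were COX8A, NDUFS6, NDUFS8, UQCRC2, NDUFB10 and NDUFA9. UQCRC2 had 47.9, 50.0 and 47.4 FPKM in resistant and 29.4, 30.8 and 29.8 FPKM in parental cells, a fold of 1.59 with narrow groups (0.67 ± 0.12, adjusted p = 0.00798, limma), and did not pass without resistant replicate 3 (0.69, adjusted p = 0.0582). NDUFS6, an accessory subunit of the input module of complex I, had 13.5, 16.4 and 15.3 against 7.56, 9.98 and 6.88 FPKM, a fold of 1.77 (adjusted p = 0.0121, limma), and did not pass without the same library (adjusted p = 0.0590). These were the 2 members whose call was lost with a single library only.

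COX8A, the smallest nuclear subunit of complex IV, had 1.98, 5.83 and 4.24 FPKM in resistant and 0.150, 1.28 and 1.25 FPKM in parental HepG2 cells. These values correspond to only 17, 54 and 37 reads in resistant and 1, 8 and 10 reads in parental samples. The groups did not overlap but were wide, and the log2 fold change was 1.39 ± 0.36 SE (adjusted p = 0.0292, limma), with adjusted p of 0.0875 without parental replicate 1, 0.0710 without resistant replicate 2 and 0.0771 without resistant replicate 3. COX8A was no longer called differentially expressed with a pseudocount of 0.1 or with no filter. COX7A2L, a factor that joins complexes III and IV, was the 1 member that fell, with 12.3, 14.0 and 12.8 FPKM in resistant and 18.5, 25.1 and 16.7 FPKM in parental cells (-0.57 ± 0.17, adjusted p = 0.0493, limma). It did not pass without any of the 5 libraries other than parental replicate 3, at adjusted p of up to 0.164.

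NDUFA9, NDUFB10 and NDUFS8 of complex I rose in both lines, 4.55% of the 66 members tested in both, where 3.49% of 10688 genes did, and 0 members fell in both, where 2.36% of genes did. NDUFS8, an iron-sulfur core subunit, had 3.55, 6.80 and 5.06 FPKM in resistant and 2.41, 2.55 and 3.11 FPKM in parental HepG2 cells, and 19.0, 15.1 and 23.7 against 14.6, 10.3 and 11.1 FPKM in Huh7. NDUFB10, a membrane arm subunit, had 34.3, 49.5 and 40.1 against 23.0, 31.9 and 24.2 FPKM in HepG2 and 50.6, 37.6 and 48.3 against 32.1, 27.7 and 22.6 FPKM in Huh7. In HepG2 the calls of NDUFS8 and NDUFB10 were lost without 5 and 4 of the 6 single libraries, at adjusted p of up to 0.135 and 0.141, and in Huh7 neither passed with the GC trend taken off (log2 fold changes 0.10 and 0.17), nor NDUFS8 with an equal nuclear sum. NDUFA9 was tested in HepG2 only because its resistant samples reached the filter, at 1.60, 1.74 and 1.65 against 0.872, 0.924 and 0.930 FPKM, so it could only be called higher there. Its HepG2 call was lost without any 1 of the 3 parental libraries, at adjusted p of 0.0903, 0.0692 and 0.0645 (limma), and it was not tested without any 1 of the resistant libraries.

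Whether the lines differed was tested by the interaction, the change in Huh7 minus the change in HepG2, in 66 nuclear members that passed the filter in both. The change was larger in Huh7 for 22 members (33.3%), where 24.1% of 10688 genes were called, and lower in Huh7 for 9 (13.6%), where 32.2% were. The counts became 12 and 15 with an equal nuclear sum (17.6% and 40.1% of all genes), and the 22 became 14 without HepG2 resistant replicate 3. Of the 66 members, 41 had a positive change in both lines (62.1%), 4 a negative change in both, 10 were positive in Huh7 and negative in HepG2, and 11 the reverse. Of the 10688 genes, 3078 were positive in both (28.8%), 1980 negative in both, 2236 positive in Huh7 and negative in HepG2, and 3394 the reverse. The share with the same sign in both lines was 68.2% over these members and 47.3% over all genes tested in both. Most tested members were positive in each line taken alone, 52 of 70 in Huh7 and 54 of 68 in HepG2. The HepG2 count was 44 with median-ratio scaling and 41 with the GC trend taken off. Equal signs are frequent wherever most changes are positive in both lines, so the share is not read as agreement between the lines.

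**Figure D5:**
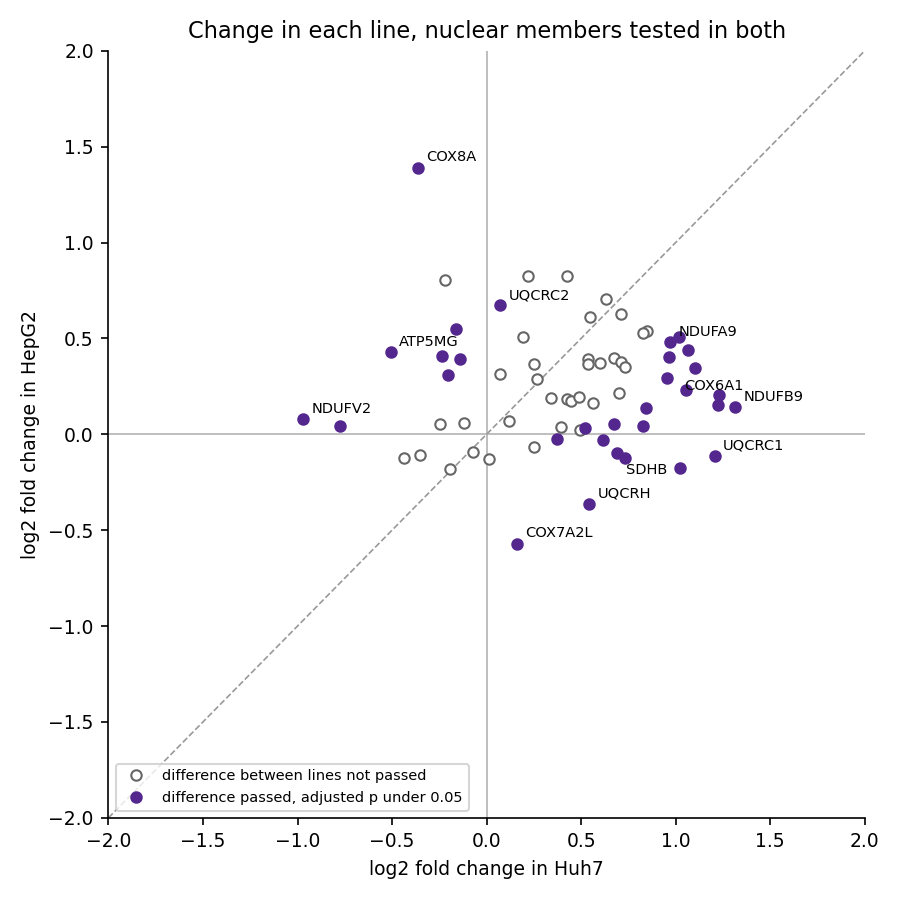
The log2 fold change of FPKM + 1 in HepG2 (vertical axis) against that in Huh7 (horizontal axis) for the 66 nuclear members tested in both lines. The dashed line marks equal change, and filled points are the 31 members whose interaction passed the test, 22 below the line and 9 above it, which become 12 and 15 with an equal nuclear sum.

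SDHB showed the smallest adjusted p of the interaction. Its HepG2 values were 25.3, 27.7 and 26.9 FPKM in resistant and 27.2, 32.7 and 30.8 FPKM in parental cells, lower on average than the parental ones, unlike in Huh7, and the interaction was 1.20 ± 0.15 SE (adjusted p = 7.59e-05, limma). UQCRH had 96.1, 93.3 and 83.6 against 129, 126 and 98.9 FPKM in HepG2, a change that did not pass there, and an interaction of 0.91 ± 0.17 (adjusted p = 0.000850, limma). COX6A1 had 41.6, 47.5 and 38.3 against 42.4, 43.4 and 29.7 FPKM in HepG2, and an interaction of 1.07 ± 0.21 (adjusted p = 0.00123, limma). All 3 kept their call with the GC trend taken off and with an equal nuclear sum.

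In the other direction, UQCRC2 rose in HepG2 and differed little in Huh7, with an interaction of -0.60 ± 0.12 SE (adjusted p = 0.00151, limma). NDUFV2, which fell in Huh7, had 4.97, 2.91 and 3.26 FPKM in resistant and 3.65, 2.76 and 3.80 FPKM in parental HepG2 cells, and an interaction of -1.05 ± 0.23 (adjusted p = 0.00246, limma). ATP5MG had 2.58, 1.65 and 2.83 against 1.01, 1.71 and 1.73 FPKM in HepG2, and its interaction of -0.94 ± 0.23 (adjusted p = 0.00397, limma) was -0.03 with the GC trend taken off. COX8A had the widest interaction by size, -1.75 ± 0.49 (adjusted p = 0.00890, limma). It rests on few reads, with 1, 8 and 10 in the HepG2 parental samples.

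The parental lines themselves differed in the members. Of 70 nuclear members tested, 26 were higher in Huh7 than in HepG2 parental cells (37.1%), where 39.0% of 12796 genes were, and 13 were lower (18.6%), where 26.2% were. With the GC trend taken off, 19 were higher (33.6% of all genes) and 23 lower (33.8%), and the median moved from 0.15 to -0.01. The 26 became 16 without Huh7 parental replicate 1 and 17 without replicate 2, and the 13 became 7 without Huh7 parental replicate 2 and 8 without HepG2 parental replicate 2. NDUFA5, NDUFA9, NDUFS7 and ATP5MC2, all among the 26, entered this test only through the Huh7 parental samples, so they could only be called higher. The line and any difference in handling cannot be told apart here.

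NDUFV1, NDUFS8 and NDUFB7 of complex I were higher in Huh7 than in HepG2 parental cells. NDUFV1 stood at 57.7, 48.5 and 43.4 FPKM in Huh7 and 11.6, 12.2 and 11.5 FPKM in HepG2 parental cells, a fold of 3.96 (1.98 ± 0.14, adjusted p = 7.34e-06, limma). NDUFS8 stood at a fold of 3.50 (adjusted p = 3.05e-05, limma), and NDUFB7, a small membrane arm subunit, at 24.9, 15.0 and 12.8 against 3.16, 3.06 and 2.99 FPKM, a fold of 4.39 (adjusted p = 6.98e-05, limma). In the other direction, UQCRH was 2.81-fold, UQCRC2 2.45-fold and COX7A2L 2.16-fold lower in Huh7. The lines did not overlap in any of these 6 genes.

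The MT- members were near the floor in these data. Their summed level was 3.31 to 5.64 FPKM in resistant and 2.47 to 3.46 FPKM in parental Huh7 cells, and 4.04 to 5.93 and 5.13 to 6.16 FPKM in HepG2, although mitochondrial transcripts are known to be abundant in liver cells. Of the 5, MT-CO1 and MT-ND3 were tested. MT-CO1, the catalytic subunit of complex IV, had 2.43, 1.61 and 1.98 FPKM in resistant and 1.16, 1.00 and 1.24 FPKM in parental Huh7 cells, and rose by 0.49 ± 0.13 SE (adjusted p = 0.00892, limma), while in HepG2 it had 1.61, 1.17 and 1.21 against 0.938, 1.27 and 0.948 FPKM (0.18, adjusted p = 0.424, limma). MT-ND3 of complex I had 1.68, 1.20 and 1.52 against 0.322, 1.72 and 1.61 FPKM in Huh7 and 1.37, 2.37 and 2.86 against 2.86, 3.29 and 1.84 FPKM in HepG2, and passed in neither, although in Huh7 it rose with the GC trend taken off (0.85, adjusted p = 0.0240, limma). Between the parental lines MT-ND3 was lower in Huh7 (-0.78, adjusted p = 0.0427, limma), a call that was lost without Huh7 parental replicate 1 or HepG2 parental replicate 1 or 2, at adjusted p of up to 0.116.

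MT-ND2, MT-ND4L and MT-ND5 stayed under the filter, with at most 10, 6 and 25 reads in a sample. The genes of the mitochondrial genome share their place with 2 long NONCODE models, one on the plus strand from position 3318 to 15887 and one on the minus strand from 3247 to 15886, and how reads in both a gene and such a model were assigned is not given in the sources used here. The minus-strand model held 24.2 to 34.0 FPKM in Huh7 and 32.9 to 67.5 FPKM in HepG2. The plus-strand model held 0.491 to 1.49 FPKM in Huh7 and 0.346 to 0.648 FPKM in HepG2, and the cause of this difference was not tested. The library kit named by the labels has no strand-marking step named beside it. Whether sense and antisense reads were kept apart is therefore not known, and the MT- members give no measure of mitochondrial transcription here.

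Some nuclear members have pseudogenes that were listed with values of their own. NDUFB4 rose in Huh7 (67.2 ± 4.12 against 46.6 ± 3.37 FPKM, SD, n = 3), though not with an equal nuclear sum (adjusted p = 0.0511, limma), while the pseudogene NDUFB4P12 stood at a mean of 29.4 FPKM over all 12 samples, and COX6A1P2 stood at 20.5 FPKM. Named pseudogenes numbered 17 for COX6C, 12 each for NDUFA5 and NDUFB4 and 7 each for COX6B1, ATP5F1A, ATP5MC1 and ATP5PB in the annotation. In resistant and parental Huh7 cells NDUFB4P12 had 44.9 ± 5.98 and 32.4 ± 3.96 FPKM, and COX6A1P2 28.3 ± 2.12 and 18.3 ± 5.42 FPKM (SD, n = 3). NDUFA9P1 went the other way from NDUFA9, at 0.830 ± 0.117 and 2.93 ± 0.571 FPKM (SD, n = 3). Levels of such members are uncertain, since reads could be split among copies. What such copies contribute to the changes was not tested.

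Genes around the respiratory chain were followed in 12 lists of 150 genes, 146 of which had a value. In Huh7, 136 were tested, 51 rose (37.5%) and 40 fell (29.4%), where 32.7% and 37.4% of all genes did. In HepG2 133 were tested, 13 rose (9.77%) and 8 fell (6.02%), where 11.6% and 8.43% of all genes did. Their median log2 fold change in Huh7 was 0.09. The citric acid cycle list had 7 of 14 genes rising and 3 falling in Huh7, led by MDH2, malate dehydrogenase of the matrix, with 116, 90.2 and 105 FPKM in resistant and 51.2, 40.5 and 39.4 FPKM in parental cells (1.23 ± 0.14, adjusted p = 0.000145, limma). In HepG2 1 of the 14 rose, IDH2, which makes NADPH in the matrix, at 43.9, 69.0 and 58.5 against 29.1, 38.1 and 28.0 FPKM (0.82, adjusted p = 0.0246, limma).

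The regulators gave calls in both directions. Of all genes, 32.7% rose and 37.4% fell in Huh7, and 11.6% rose and 8.43% fell in HepG2. Of 11 biogenesis regulators tested in Huh7, 3 rose and 5 fell, and GABPA, the DNA-binding part of GA-binding protein, fell from 8.45, 11.5 and 13.9 FPKM in parental to 5.36, 4.52 and 3.78 FPKM in resistant cells (-1.13 ± 0.18, adjusted p = 0.000690, limma), a call lost with the GC trend taken off (-0.24). In HepG2, 0 of 12 rose and 2 fell, led by PPARGC1A, the coactivator PGC-1α, at 6.29, 4.04 and 4.69 against 15.3, 9.45 and 10.5 FPKM (-1.08 ± 0.21, adjusted p = 0.0111, limma). PPARGC1A was under the filter in Huh7, at 0.0774 to 0.923 FPKM. Of 16 genes for copying and transcribing mitochondrial DNA, 3 rose and 9 fell in Huh7, the largest change being that of MTERF2 (-1.15, adjusted p = 0.000127, limma), and 1 rose and 0 fell in HepG2, POLG, the mitochondrial DNA polymerase (0.47, adjusted p = 0.0417, limma).

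Assembly factors gave calls in both directions in Huh7, where 32.7% of all genes rose and 37.4% fell. For complex I, 7 of 17 rose and 5 fell, with DMAC2 at 46.3, 35.8 and 41.8 against 22.6, 23.2 and 16.4 FPKM (0.97, adjusted p = 0.000700, limma). For complex IV, 8 of 20 rose and 7 fell, and COX20, a chaperone of the second subunit, went from 3.61, 3.87 and 3.77 FPKM in parental to 0.726, 0.991 and 0.746 FPKM in resistant Huh7 cells (-1.39 ± 0.11, adjusted p = 3.12e-05, limma). In HepG2 COX20 rose, from 1.47, 1.44 and 1.58 to 4.27, 2.38 and 3.38 FPKM (0.78, adjusted p = 0.0215, limma). For complex III, 3 of 6 rose and 2 fell, with BCS1L, which inserts the Rieske protein, at 20.9, 16.2 and 19.2 against 8.35, 7.33 and 6.61 FPKM (1.23 ± 0.13, adjusted p = 9.95e-05, limma). For complex II, 2 of 4 rose and 1 fell, led by SDHAF1 (1.24, adjusted p = 0.00109, limma), and for complex V 0 of 2 tested passed.

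In HepG2 the largest changes of the assembly lists were a fall of NDUFAF4 for complex I, at 18.6, 16.5 and 14.3 against 28.2, 28.9 and 39.2 FPKM (-0.91 ± 0.17, adjusted p = 0.00951, limma), a fall of SDHAF4 for complex II (-0.99, adjusted p = 0.0332, limma) and a rise of COA3 for complex IV, at 79.1, 93.8 and 99.8 against 45.5, 52.7 and 41.9 FPKM (0.94 ± 0.15, adjusted p = 0.00529, limma). COA3 also rose in Huh7 (1.18, adjusted p = 0.000321, limma).

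Carriers and neighbouring enzymes completed the lists. Beside them, 32.7% of all genes rose and 37.4% fell in Huh7, and 11.6% rose and 8.43% fell in HepG2. Of 11 genes for electron carriers and input, 5 rose and 2 fell in Huh7, the largest change being ETFDH, which passes electrons from fatty acid oxidation to coenzyme Q, at 1.13, 1.53 and 1.23 against 4.69, 5.21 and 5.54 FPKM (-1.42 ± 0.12, adjusted p = 3.75e-05, limma). In HepG2, 1 of 10 rose, the choline dehydrogenase CHDH (0.97, adjusted p = 0.00551, limma), and 2 fell. Of 6 genes of nucleotide exchange and ATP synthase inhibition, 3 rose and 0 fell in Huh7, led by the ADP/ATP carrier SLC25A5 at 331, 311 and 295 against 187, 192 and 153 FPKM (0.82, adjusted p = 0.000659, limma), and in HepG2 1 rose, UCP2 (0.69, adjusted p = 0.0453, limma), and 1 fell.

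For coenzyme Q synthesis, 3 of 13 rose and 0 fell in Huh7, led by COQ8B (0.90, adjusted p = 0.000208, limma), and 1 rose and 1 fell in HepG2, the larger change being that of PDSS1 (0.75, adjusted p = 0.0412, limma), which makes the side chain of coenzyme Q. For mitochondrial RNA handling, 7 of 16 rose and 6 fell in Huh7, led by HSD17B10, a subunit of mitochondrial RNase P (1.20, adjusted p = 0.000182, limma). In HepG2 3 of 16 rose and 0 fell, led by FASTKD3 (0.74, adjusted p = 0.0129, limma). The rises in Huh7 were 23.1% for coenzyme Q synthesis and 43.8% for RNA handling, where 32.7% of all genes rose and 37.4% fell. In HepG2 11.6% of all genes rose and 8.43% fell. Whether any of these lists differs from all genes was not tested.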

How the data were processed

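Total RNA of 12 samples was sequenced. The authors deposited 1 table per sample with 27249 Ensembl and 71462 NONCODE genes on GRCh38. The unit is not stated; the deposited values are FPKM (or RPKM, which cannot be told apart), since 95.6% to 96.5% of values per library of up to 2000 reads lay within 0.05 of a whole number of reads when multiplied by exon length. Reads were converted with bcl2fastq per the labels, and the aligner and counting are not given in the sources used here. Exon lengths and GC content came from GENCODE release 29. Length was that of all exons of a gene together, and GC content that of its longest transcript.

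Values were read with Python 3.11.15 and pandas 2.3.3. Log2(FPKM + 1) was fitted with limma 3.58.1 in R 4.3.3 (empirical Bayes with trend, two-sided, Benjamini-Hochberg over all genes tested), per line with 3 against 3 samples, and over 12 samples for the interaction. The filter was 1 FPKM in 3 of 6 samples. A fold change on this scale understates that of low genes. The number of reads limits precision. Groups came from sample titles. The check of replicate numbers is given with the alternatives.

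Members, gene lists and tests were chosen with earlier results of these data known. Genes were named by rule: in each line and complex the largest rise and fall without overlap, fixed core subunits, every MT- member, isoforms of complex IV, the 3 smallest adjusted p of the interaction and the 3 largest parental differences in each direction, every differentially expressed member, and the largest change in each pathway list. NDUFA5, NDUFA9, NDUFA11, NDUFB4, NDUFB10, NDUFS3, NDUFS4, NDUFS7, SDHC, SDHD, UQCR11, UQCRHL, COX7B2, ATP5MC2, ATP5ME and the peripheral stalk subunits were named after their values were seen, as were COX6C and ATP5MC1 for their pseudogenes. Alternatives were a pseudocount of 0.1, no filter, upper-quartile, median-ratio and nuclear-sum scaling, limma without trend, all 12 samples in 1 fit, a replicate block, a GC correction (lowess, span 0.3), leaving out each replicate, and, added after seeing the data, limma-voom on the reads calculated back. The fits were tested on simulated data.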

Additional observations from a re-analysis of the deposited data

Results flagged for a closer look

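The change differed between the lines, by the interaction test in limma over 10688 genes, for 16 of the named members. Of all 10688 genes, 24.1% were called higher and 32.2% lower, and 3 members in each direction had been named for the smallest adjusted p of this same test. Others had been named for a large change in 1 line, which favours a difference between the lines. The count of named members is therefore not read against the shares of all genes. The change was larger in Huh7 for UQCRC1 (1.32), SDHB (1.20), NDUFB9 (1.17), COX6A1 (1.07), CYC1 (1.03), UQCRH (0.91), ATP5F1B (0.83), COX6B1 (0.76), COX7A2L (0.73), UQCR10 (0.62), ATP5F1A (0.62) and ATP5MF (0.51). With an equal nuclear sum the last 3 did not pass, at adjusted p of 0.110, 0.0549 and 0.211, and ATP5MF did not pass with the GC trend taken off. The change was lower in Huh7 for COX8A (-1.75), NDUFV2 (-1.05), ATP5MG (-0.94) and UQCRC2 (-0.60), and ATP5MG stood at -0.03 with the GC trend taken off. COX8A had only 1, 8 and 10 reads in the HepG2 parental samples.

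In data outside the members, MT-RNR2 reached 2844 FPKM in Huh7 resistant replicate 3, above every other library. An unnamed NONCODE gene at the end of the mitochondrial genome, position 15998 to 16569 on the plus strand, had a mean of 224 ± 21.5 FPKM in Huh7 resistant and 83.0 ± 2.14 FPKM in Huh7 parental samples (SD, n = 3), and 307 ± 31.4 against 346 ± 87.5 FPKM in HepG2.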

How the results depend on the processing

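For 105 calls of named genes, 1565 of 1761 values under alternatives kept direction and side of the threshold, 190 kept direction only and 6 reversed, all with the GC trend taken off: ATP5MG (0.32), COX7B (0.034), NDUFV1 (-0.0042), NDUFA5 (0.041) and NDUFA11 (-0.014) in Huh7 and ATP5MG between the parental lines (-0.045). An equal nuclear sum gave, in Huh7, 13 nuclear falls, 1 upward and 3 downward differentially expressed members and a median of 0.23, and an interaction of 12 higher and 15 lower. In Huh7, limma-voom gave 10 falls (40.0% of all genes) and 2 differentially expressed downward (2849 of 12552 genes). A pseudocount of 0.1 gave 2 downward, and no filter a median of 0.26. In HepG2 the rises were 3 with no filter, upper-quartile (9.22% of all genes) or median-ratio scaling (8.43%). They were 18 with all 12 samples in 1 fit (20.2%) and 10 with the GC trend taken off (15.8%). The HepG2 fall became 0 with a pseudocount of 0.1, no filter or no trend, and 2 with all 12 samples or the GC trend taken off, and differentially expressed rises became 0 with a pseudocount of 0.1 or no filter. The GC correction gave 23 nuclear members lower in the parental comparison. Median-ratio scaling moved the median of all genes by 0.13 in the interaction and -0.14 between the parental lines. The cause was not tested.

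The replicate block gave 19 nuclear rises in HepG2 and changed no other nuclear or MT- count by over 1.5 times. The share of all genes that rose under this block is not given here, so the 19 are not read as a result about the members. After group means were taken off, same-numbered resistant and parental samples correlated at 0.0843, 0.0620 and -0.228 in Huh7 and 0.246, 0.437 and -0.0110 in HepG2, and not every sample correlated best with its own number, so the numbers were not taken to pair the samples.

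Of the 2 MT- members tested, 2 rose in Huh7 with no filter or the GC trend taken off, where the median was 0.63 (pseudocount of 0.1), 0.69 (GC) and 0.60 (voom). In HepG2 their median of -0.01 became 0.011 with a pseudocount of 0.1, 0.049 with voom and -0.19 with no filter, and 0.088 without parental replicate 2 and 0.048 without resistant replicate 1. The interaction called 1 MT- member with the GC trend taken off, and the parental comparison 0 with a pseudocount of 0.1, an equal nuclear sum or voom.

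Leaving out each replicate in turn gave, in Huh7, 37 to 40 nuclear rises, 4 to 7 falls, 5 to 11 differentially expressed upward (5 without parental replicate 3) and 0 to 1 downward, medians of 0.45 to 0.51, and an MT- median of 0.19 to 0.45. In HepG2 it gave 0 to 10 rises, 0 to 1 falls, 0 to 3 differentially expressed upward, medians of 0.20 to 0.31, and an MT- median of -0.12 to 0.088. The interaction had 14 to 23 higher and 6 to 9 lower, the parental comparison 16 to 29 higher and 7 to 12 lower, and 0 to 1 MT- members lower. Depth and 3 samples a group limit the members near 1 FPKM.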
